A study of Mus musculus with 4 samples.

Results

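The genes for subunits and assembly factors of respiratory chain complex I were compared between brown adipose tissue of wild-type mice and of mice lacking Tsku, which encodes the secreted proteoglycan tsukushi. Members were all genes with a probe set whose platform annotation gives a single symbol starting with Nduf, and the brightest probe set on average represents each gene. This gave 42 of the 22180 genes measured in the same way. Of these, 32 encode subunits of complex I and 8 are Ndufaf assembly factors. The other 2, Ndufa4 and Ndufa4l2, carry the name but are not complex I subunits. Of 37 nuclear subunit genes listed, 5 were not analysed here.

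All samples were brown fat from male C57BL/6 mice aged 4 months and fed chow. The groups were 2 wild-type and 2 Tsku knockout samples, each hybridised to 1 array. The titles call the samples of a genotype biological replicates but do not say whether each is its own mouse or a pool. The p-values therefore reflect only how far these 4 samples scatter, and part of that scatter may be technical. The labels name the knockout without further description, and no probe set was listed for Tsku, so the deletion was not checked here. Values are normalized log2 expression on a scale with an unstated offset. A level can be set against the same gene on another array, not against another gene. The labelled tissue carried its markers: 7 of 8 brown adipocyte genes, Ucp1 and Cidea among them, were above background on all 4 arrays, Elovl3 being the exception. So were 10 of 10 macrophage, 8 of 8 endothelial, 11 of 16 skeletal muscle and 4 of 10 liver markers. Being above background therefore does not identify the tissue. Background, between 0.63 and 0.81 on the arrays, was the value that 95% of probe sets for odorant and pheromone receptors did not exceed. Of the Nduf genes, 41 of 42 were above it on all arrays, compared with 9927 of all 22180 genes. The shares over all genes given below include the genes that were not above it. The number of arrays limits the precision.

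Complex I (NADH:ubiquinone oxidoreductase) takes electrons from NADH to ubiquinone and pumps protons across the inner mitochondrial membrane. Its matrix arm holds the flavin and iron-sulfur clusters, and its membrane arm holds the proton pumps, whose core is encoded in mitochondrial DNA, while the accessory subunits are encoded in the nucleus. Assembly factors join modules together and leave the finished enzyme. In brown fat, uncoupling protein 1 lets the protons back in without making ATP, so the chain runs fast and its fuel is turned into heat.

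No difference between genotypes was detected for any complex I gene once all genes were accounted for. With limma and Benjamini-Hochberg adjustment, 0 of 42 Nduf genes had an adjusted p under 0.05, and over all genes tested the share was 0% as well. Their adjusted p-values ran from 0.872 to 0.998. At an unadjusted p under 0.05 there was 1 member, Ndufs5, which was lower in the knockout; of all genes 5.56% passed, with 2.67% lower and 2.89% higher. The subunits had a median log2 difference (knockout minus wild type) of 0.04, with 17 of 32 higher and 15 lower. The assembly factors had a median of 0.03, with 4 of 8 higher and 4 lower. Over all genes the median was 0.02, with 52.6% higher. In these bulk samples, fewer cells of a type and less RNA per cell cannot be told apart.

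Most differences were also bounded to within a 2-fold change, but fewer to a narrower range. The 95% interval lay within 1 log2 unit of 0, that is within a 2-fold change either way, for 38 of the 42 Nduf genes, compared with 81.3% of all genes. The exceptions were Ndufs5, Ndufb11, Ndufaf2 and Ndufa4l2. Within a 1.5-fold change either way lay the intervals of 17 of the 42, compared with 21.5% of all genes. Among the assembly factors it was 1 of 8. The median half-width of the interval was 0.46 for subunits and 0.52 for assembly factors. These intervals are not adjusted for the number of genes. Ndufs5, at a log2 difference of -0.74, had an adjusted p of 0.872 in limma. Over all genes the log2 differences ran from -3.39 to 3.65, and 0 genes passed the adjusted threshold. Differences much larger than these half-widths could therefore go uncalled. The arrays of the genotypes did not overlap for 19 members, 13 with both knockout arrays above and 6 with both below, or 45.2% of members. Of all genes 35.2% did not overlap, 19.4% with the knockout above and 15.8% with it below. The difference was larger than the wider gap between the arrays of a genotype for 13 members, or 31.0%, beside 22.6% of all genes.

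**Figure D1:**
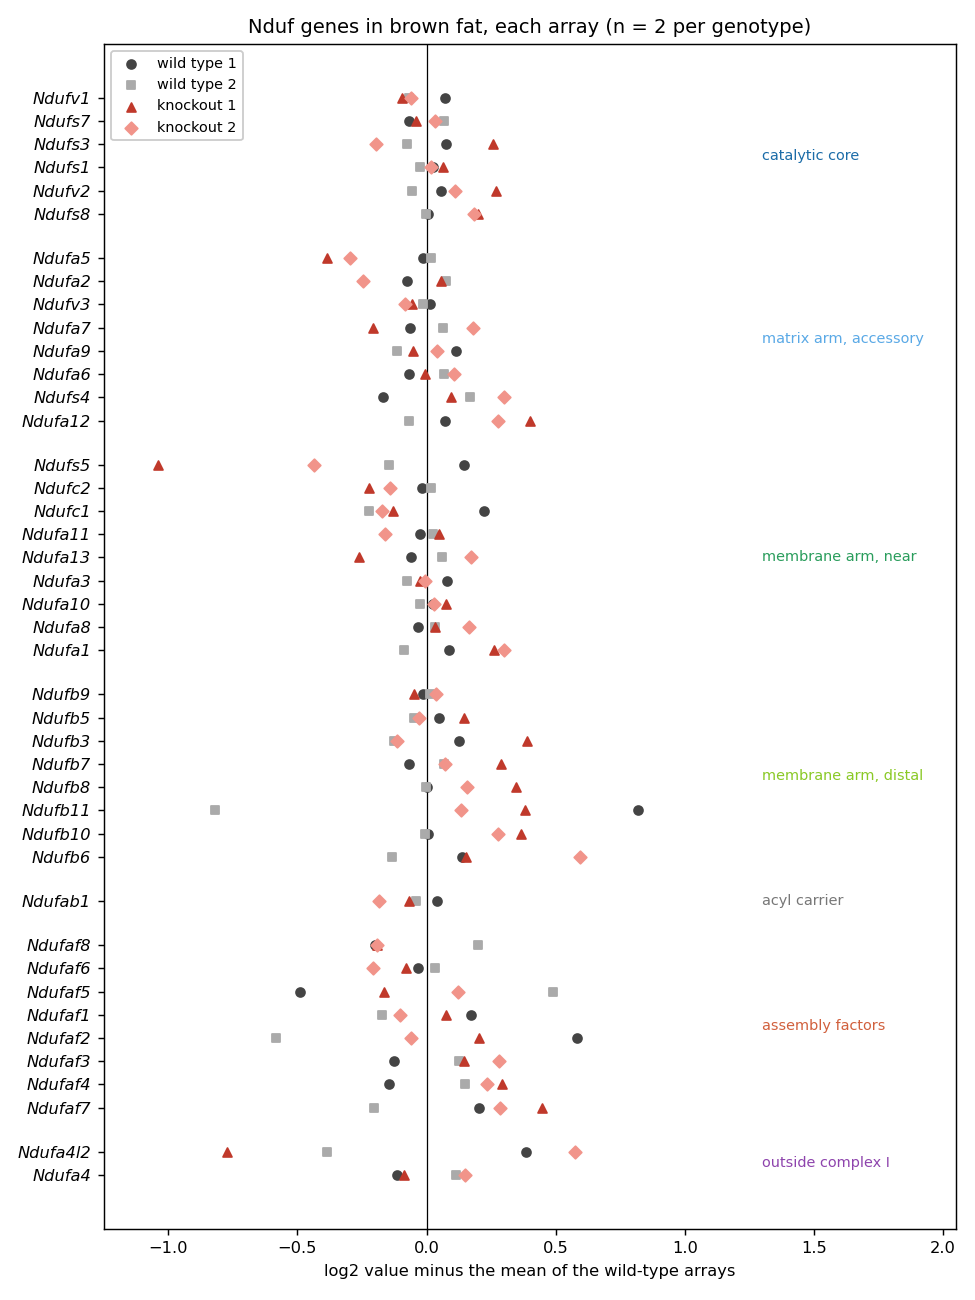
Log2 value of each Nduf gene on each array, minus the mean of its wild-type arrays (x axis), with genes grouped by their place in complex I; circles and squares are the wild-type arrays, triangles and diamonds the knockout arrays. Most points lie close to the wild-type mean, and those of Ndufs5, Ndufb11 and Ndufa4l2 lie furthest from it.

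The catalytic core of the matrix arm carries electrons from NADH to ubiquinone, and 6 of its 7 nuclear genes were measured. Ndufv1, which binds NADH and the flavin, read 7.91 and 7.77 in wild-type tissue, against 7.75 and 7.78 in knockout tissue. Ndufs1, which holds several iron-sulfur clusters, read 7.82 and 7.77 in wild-type tissue, against 7.86 and 7.81 in knockout tissue. In both genes the genotypes overlapped. Ndufv2, the small iron-sulfur partner of Ndufv1, read 7.40 and 7.29 in wild-type tissue, against 7.61 and 7.45 in knockout tissue, a log2 difference of 0.19 (95% interval -0.27 to 0.65). Ndufs8, which carries clusters on the way to ubiquinone, read 7.90 and 7.89 in wild-type tissue, against 8.10 and 8.08 in knockout tissue. Its difference was 0.19 (-0.25 to 0.63, limma adjusted p = 0.914), and it was the core gene whose arrays lay closest together within each genotype. For Ndufv2 and Ndufs8 both knockout arrays lay above both wild-type arrays.

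Ndufs7, which holds the last cluster before ubiquinone, read 8.40 and 8.54 in wild-type tissue, against 8.43 and 8.51 in knockout tissue. Ndufs3, a core subunit without a cluster, read 4.49 and 4.33 in wild-type tissue, against 4.67 and 4.21 in knockout tissue. The knockout arrays bracketed the wild-type arrays for Ndufs3, so that its difference of 0.03 became -0.20 without knockout replicate 1. Over the 6 core genes the median difference was 0.04, with 4 higher and 2 lower, or 5 higher with quantile normalization repeated.

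The accessory subunits of the matrix arm surround the core, and 8 of 9 were measured, 3 higher and 5 lower with a median difference of -0.01, or 4 higher with quantile normalization repeated. When knockout replicate 1 was left out, 5 of 8 were higher, with a median of 0.07. Leaving out wild-type replicate 2 gave 4 of 8 and 0.01. Ndufa12, an accessory subunit that takes the place held during assembly by Ndufaf2, read 6.39 and 6.25 in wild-type tissue, against 6.71 and 6.59 in knockout tissue. Its difference was 0.34 (SE 0.19, 95% interval -0.12 to 0.80, limma adjusted p = 0.886). Ndufa5 read 4.24 and 4.27 in wild-type tissue, against 3.87 and 3.96 in knockout tissue, a difference of -0.34 (SE 0.18, -0.78 to 0.10, limma adjusted p = 0.886). In both genes the genotypes did not overlap, and the arrays of a genotype lay closer together than the genotypes. The remaining accessory genes of this arm, Ndufa2, Ndufa6, Ndufa7, Ndufa9, Ndufs4 and Ndufv3, had differences between -0.10 and 0.20.

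The part of the membrane arm next to the matrix arm had 3 of 9 genes higher and 6 lower, with a median difference of -0.05. When wild-type replicate 1 was left out, 5 of 9 were higher, with a median of 0.06. Ndufs5, an accessory subunit on the side of the intermembrane space, had the largest difference of any member. It read 1.62 and 1.32 in wild-type tissue, against 0.43 and 1.03 in knockout tissue, with both knockout arrays below both wild-type arrays. The difference was -0.74 (SE 0.26, 95% interval -1.38 to -0.09, limma adjusted p = 0.872). The probe set was dim, and knockout replicate 1 was below background. Without that array the difference was -0.43 (limma adjusted p = 0.927). The limma adjusted p lay between 0.676 and 0.932 under every alternative that kept the gene. A brighter probe set is listed for both Ndufs5 and the pseudogene Ndufs5-ps and cannot be assigned to either. It read 6.19 and 6.11 in wild-type tissue, against 6.37 and 7.15 in knockout tissue, the opposite direction.

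Ndufc2, a membrane subunit, read 8.54 and 8.58 in wild-type tissue, against 8.34 and 8.42 in knockout tissue, a difference of -0.18 (95% interval -0.62 to 0.26). Ndufa1, a small subunit encoded on the X chromosome, read 6.35 and 6.18 in wild-type tissue, against 6.52 and 6.56 in knockout tissue, a difference of 0.28 (-0.18 to 0.73). Both had genotypes that did not overlap, in opposite directions. The other members of this part, Ndufa3, Ndufa8, Ndufa10, Ndufa11, Ndufa13 and Ndufc1, differed by -0.15 to 0.10.

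The distal membrane arm is built from the Ndufb subunits, and 8 of its 11 listed genes were measured. It was the part with the most even direction: in the knockout 7 of the 8 were higher, beside 52.6% of all genes. The median difference was 0.22, and with quantile normalization repeated 8 of 8 were higher. Subunits of complexes II to V leaned the same way, with 30 of 37 higher. None of the 8 passed an unadjusted p of 0.05. Ndufb6 read 5.06 and 4.79 in wild-type tissue, against 5.08 and 5.52 in knockout tissue, a difference of 0.37 (SE 0.23, 95% interval -0.20 to 0.94, limma adjusted p = 0.895). Ndufb10 read 4.22 and 4.21 in wild-type tissue, against 4.58 and 4.50 in knockout tissue, a difference of 0.32 (SE 0.18, -0.12 to 0.76, limma adjusted p = 0.886). For both, the knockout arrays lay above the wild-type arrays, by a narrow margin for Ndufb6.

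Ndufb8 and Ndufb7 also had both knockout arrays above, with differences of 0.25 and 0.18. Ndufb3 and Ndufb5 overlapped, with 0.14 and 0.06, and Ndufb9 was level at -0.01. Ndufb11, an X-linked subunit, had the widest spread of any member: it read 2.59 and 0.95 in wild-type tissue, against 2.15 and 1.90 in knockout tissue, so the knockout arrays lay between the wild-type arrays. Its difference of 0.26 was 1.08 when wild-type replicate 1 was left out and -0.56 when wild-type replicate 2 was.

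The median of the distal arm depended on single arrays. With the average of every gene set to 0, it lay at -0.03 and -0.15 in wild type, against 0.20 and 0.02 in knockout tissue. Without knockout replicate 1 the median difference was 0.10, with 6 of 8 higher, and without wild-type replicate 2 it was 0.12, with 7 of 8 higher. The 4 parts of the enzyme were named from textbook structure and their difference from each other was not tested.

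Ndufab1, the mitochondrial acyl carrier protein, which is also needed to make lipoic acid, read 4.63 and 4.55 in wild-type tissue, against 4.52 and 4.40 in knockout tissue. The knockout arrays lay just below the wild-type arrays, with a difference of -0.13 (95% interval -0.58 to 0.32).

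**Figure D2:**
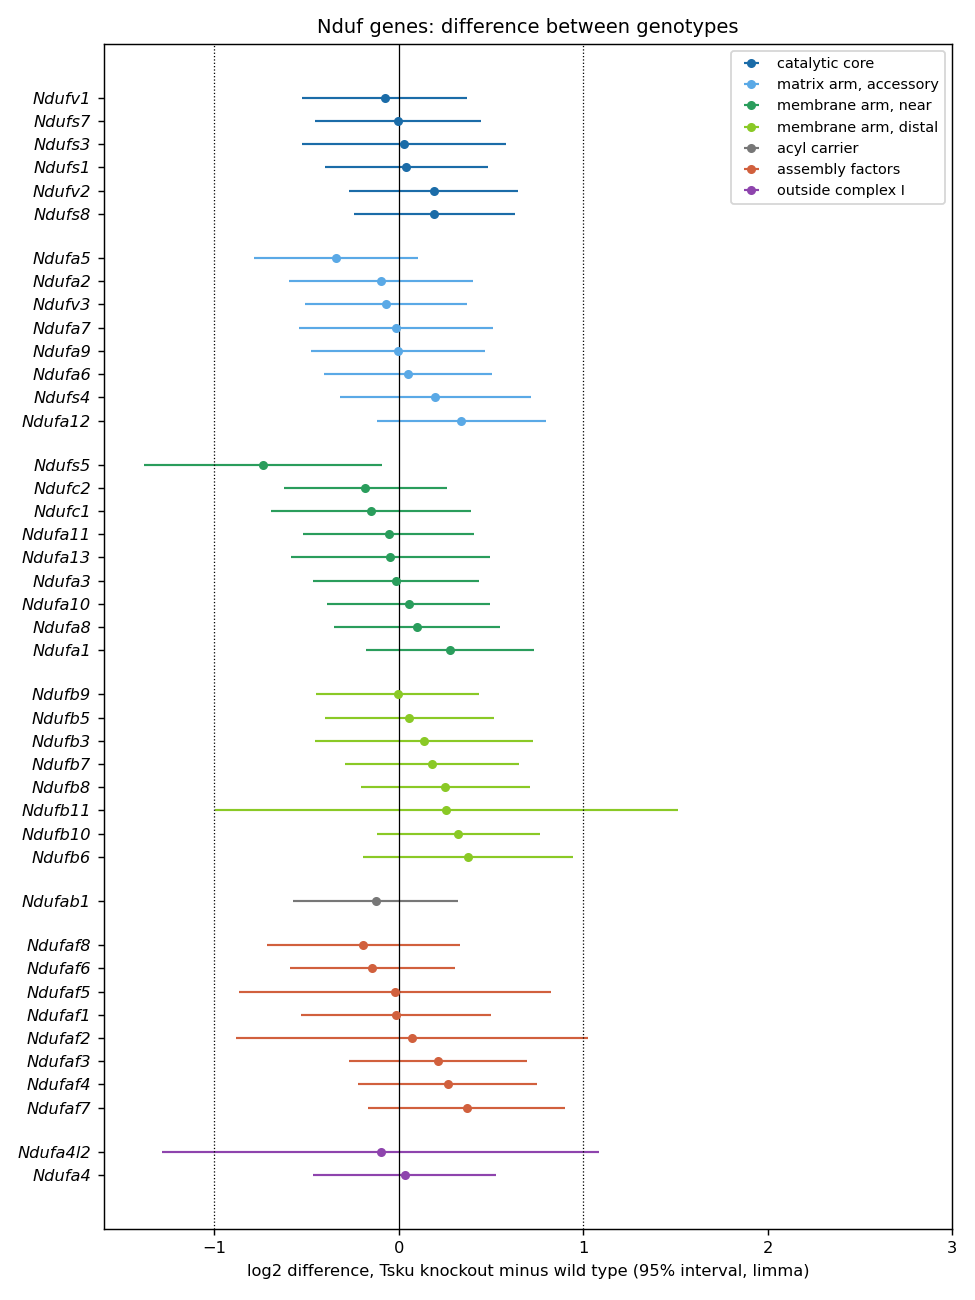
Log2 difference of each Nduf gene, knockout minus wild type, with its 95% interval from limma; the colours give the part of complex I and the dotted lines stand at 1 log2 unit either side of 0. The interval of 1 gene, Ndufs5, lies wholly on one side of 0, and 38 of 42 intervals lie between the dotted lines.

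Of the assembly factors, 3 of 8 had both knockout arrays above both wild-type arrays, as 19.4% of all genes did, and 1 had both below, as 15.8% did. Ndufaf3 and Ndufaf4 bind each other and act early on the matrix arm. Ndufaf3 read 5.11 and 5.36 in wild-type tissue, against 5.38 and 5.51 in knockout tissue. Ndufaf4 read 4.86 and 5.15 in wild-type tissue, against 5.30 and 5.24 in knockout tissue. Their differences were 0.21 (95% interval -0.27 to 0.69) and 0.26 (-0.22 to 0.75). Ndufaf7, a methyltransferase of the matrix, read 4.37 and 3.97 in wild-type tissue, against 4.62 and 4.46 in knockout tissue, the largest difference among the factors at 0.37 (SE 0.22, -0.17 to 0.90, limma adjusted p = 0.888). In each of these 3 genes the wild-type arrays lay further apart than the genotype means, with gaps of 0.25 in Ndufaf3, 0.29 in Ndufaf4 and 0.41 in Ndufaf7.

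Ndufaf6, needed early in assembly, read 2.28 and 2.35 in wild-type tissue, against 2.24 and 2.11 in knockout tissue, lower by a difference of -0.14 (95% interval -0.59 to 0.31). Ndufaf8 read 2.55 and 2.95 in wild type and 2.56 on both knockout arrays. Its partner Ndufaf5, which hydroxylates the core subunit Ndufs7, read 1.81 and 2.79 in wild-type tissue, against 2.14 and 2.42 in knockout tissue. For Ndufaf5 the knockout arrays lay between the wild-type arrays.

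Ndufaf1, part of the intermediate complex that builds the membrane arm, read 4.76 and 4.42 in wild-type tissue, against 4.66 and 4.49 in knockout tissue. Ndufaf2, which holds the place of Ndufa12, read 2.89 and 1.73 in wild-type tissue, against 2.51 and 2.25 in knockout tissue. Both were level between genotypes, at -0.01 and 0.07. For Ndufaf2 the value was 0.65 when wild-type replicate 1 was left out and -0.51 when wild-type replicate 2 was.

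The medians of subunits and assembly factors lay close together. The subunit median minus the factor median was 0.01. Array by array, with each gene set against its own mean, the subunit median lay 0.04 and -0.05 from the factor median in wild type, against -0.06 and 0.0003 in the knockout. The groups did differ in how far arrays of 1 genotype lay apart: the median gap was 0.12 for subunits and 0.26 for factors. Over all genes it was 0.23, near the value of the factors. The wild-type arrays gave gaps of 0.13 and 0.37, and the knockout arrays 0.12 and 0.15. The probe sets of the factors were dimmer: their average log2 value lay between 3.58 and 3.68 on the arrays, against 6.23 to 6.32 for subunits. The difference in spread, and the part of signal level in it, was not tested. Without wild-type replicate 2 the subunit median was 0.01 and the factor median 0.09. Without knockout replicate 2 they were 0.05 and 0.11.

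**Figure D3:**
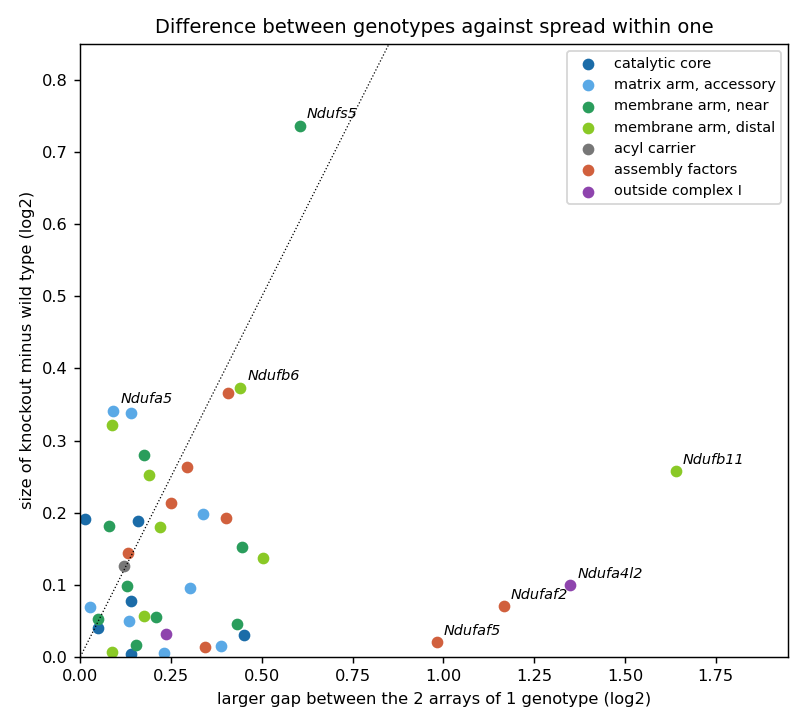
Size of the log2 difference between genotypes (y axis) against the wider gap between the arrays of a genotype (x axis) for each Nduf gene; the dotted line marks equal values. Above the line lie 13 of 42 genes, and Ndufb11, Ndufa4l2, Ndufaf2 and Ndufaf5 lie far to the right of it.

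Ndufa4, once counted in complex I and now placed in complex IV, read 8.96 and 9.19 in wild-type tissue, against 8.99 and 9.22 in knockout tissue, a difference of 0.03 (95% interval -0.46 to 0.53). Its paralog Ndufa4l2, known to be induced by low oxygen, read 3.24 and 2.47 in wild-type tissue, against 2.08 and 3.43 in knockout tissue. The knockout arrays lay outside the wild-type arrays on both sides, and the difference of -0.10 became 0.58 without knockout replicate 1 and -0.77 without knockout replicate 2.

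For 3 members the annotation gave a further, dimmer probe set. The kept probe set of Ndufa8, a subunit on the side of the intermembrane space, read 8.67 and 8.74 in wild-type tissue, against 8.74 and 8.87 in knockout tissue. Its other probe set read 3.02 and 3.68 in wild-type tissue, against 3.08 and 3.76 in knockout tissue. The log2 differences were 0.10 and 0.07. The kept probe set of Ndufa11, a membrane subunit, read 7.77 and 7.82 in wild-type tissue, against 7.84 and 7.63 in knockout tissue. Its other probe set read 1.11 and 1.19 in wild-type tissue, against 1.77 and 1.31 in knockout tissue. The probe sets of Ndufa11 thus had opposite signs, -0.06 for the kept one, where the genotypes overlapped, and 0.39 for the other, where both knockout arrays lay above. For Ndufa12 the other probe set read 1.94 and 2.50 in wild-type tissue, against 2.60 and 2.82 in knockout tissue, a difference of 0.49 beside 0.34 for the kept one. A further 6 probe sets listed an Nduf symbol together with another gene and were left out, with differences from -0.59 to 0.61.

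The mitochondrial genes ND1 to ND6 and ND4L encode the proton-pumping core of the membrane arm. All 7 were above background, 1 was higher and 6 lower in the knockout, with a median difference of -0.01, or 2 higher with quantile normalization repeated. ND4L read 10.27 and 10.26 in wild-type tissue, against 10.10 and 10.14 in knockout tissue, the largest of these differences at -0.14 (95% interval -0.58 to 0.29). ND4 and ND6 followed at -0.07 and 0.05, and ND1, ND2, ND3 and ND5 lay within 0.03 of 0. Without wild-type replicate 1, 5 of 7 were higher, and without wild-type replicate 2, 0 of 7.

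Assembly factors with other names had a median difference of 0.11, with 8 of 14 higher and 0 past an unadjusted p of 0.05. The median was -0.01 when knockout replicate 1 was left out and -0.03 when wild-type replicate 2 was, each with 7 of 14 higher. Those with the smallest p were Tmem126b, a partner of Ndufaf1 (0.41), Dmac2, a factor of the distal membrane arm (-0.51), and Aifm1, a flavoprotein that supports import of chain subunits (0.28). Among 16 regulators of mitochondrial biogenesis, 10 were higher and 0 passed, with a median of 0.05. Nearest were Tfb1m (0.51) and Tfb2m (0.57), which act on mitochondrial ribosomal RNA and transcription, and the coactivator Ppargc1b (-0.30), and Tfb2m turned to -0.28 with the mean of its probe sets. Subunits of complexes II to V had 30 of 37 genes higher at a median of 0.09, with 1 higher and 1 lower past an unadjusted p of 0.05 and 0 past the adjusted threshold. These 2 of 37 are a share near the 5.56% of all genes. They were the ATP synthase genes Atp5o (0.85) and Atp5g1 (-0.68, above background on 1 of the 4 arrays, wild-type replicate 1), and next came Uqcr11 of complex III (0.43). Complex I had 17 of 32 genes higher. The difference between the complexes was not tested, and it moved with single arrays. The shares were 23 of 37 and 18 of 32 when knockout replicate 2 was left out, and 35 of 37 and 19 of 32 when knockout replicate 1 was.

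Some lists of cell type markers lay higher or lower in the knockout, but 0 of their genes had a limma adjusted p under 0.05 in the main comparison. The unadjusted limma p was under 0.05 for 14 of 16 skeletal muscle and 4 of 8 brown adipocyte markers. It was so for 2 of 10 liver and 1 of 10 macrophage markers and for 0 in the other lists, beside 5.56% of all genes. Skeletal muscle, itself rich in complex I, had 16 of 16 markers lower in the knockout, with a median difference of -1.83. For 14 of the 16 both knockout arrays lay below both wild-type arrays, beside 15.8% of all genes. The average log2 value of that list was 3.66 and 4.26 in wild-type tissue, against 2.70 and 1.64 in knockout tissue, and 11 of its 16 genes were above background on all arrays. Macrophage markers had 10 of 10 lower, median -0.53, with means of 4.08 and 4.23 in wild-type tissue, against 3.27 and 4.00 in knockout tissue. For 0 of these 10 was the difference larger than the wider gap between the arrays of a genotype, beside 22.6% of all genes. Brown adipocyte markers had 8 of 8 higher, median 0.49, and for 4 of the 8 the genotypes did not overlap, beside 35.2% of all genes. Cox8b and Ppargc1a of this list are also counted in the lists of complexes II to V and of biogenesis regulators. Over the other lists the medians were 0.44 for liver, 0.13 for adipocytes, -0.03 for endothelium and -0.21 for fibroblasts and progenitors, and 1 erythroid gene was measured. Leaving out knockout replicate 1 brought the median to -0.03 for liver, 0.23 for endothelium and -0.13 for macrophages. Leaving out knockout replicate 2 gave 0.82, -0.27 and -0.83, and the muscle median then was -1.29. On the arrays where the muscle list lay at 0.53, 1.28, -0.36 and -1.42 against each gene's mean, the complex I subunits lay at -0.01, -0.04, -0.003 and 0.004. The part of muscle or other cells in the complex I values was not tested.

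**Figure D4:**
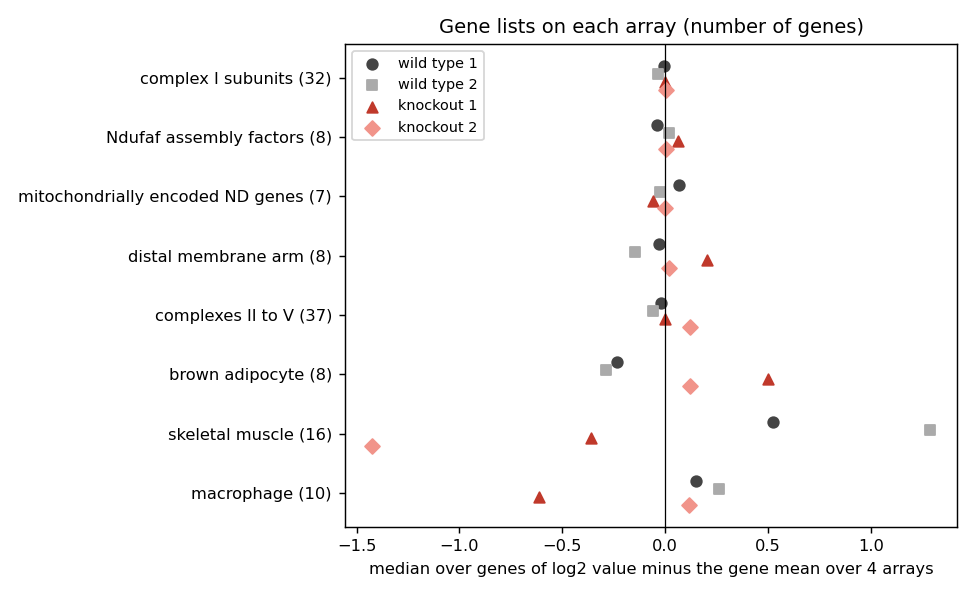
Median over the genes of each list of the log2 value minus the gene's mean over the arrays (x axis), for each array; the number of genes stands in brackets. Complex I subunits and assembly factors lie within 0.06 of 0 on every array, while the skeletal muscle list runs from -1.42 to 1.28.

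Promoter sequences from RefSeq (GRCm38.p6, 250 bases before to 50 after an annotated start) were listed for 37 of the 42 members, in 39 windows. They were searched on both strands for 4 motifs of factors known to act on respiratory chain genes, as a description of what the members share. The site of nuclear respiratory factor 1, a palindrome of 10 bases, was in 3 windows, or 7.69%, compared with 0.971% of 32851 promoters. AAGATGGC, the site of YY1, was in 7 windows, or 17.9%, compared with 2.75%. The ETS site CCGGAAGT was in 1 window, that of Ndufs3, or 2.56%, compared with 3.89% of promoters. The site of estrogen-related receptors, TNAAGGTCA, was in 0, compared with 1.28%. The member windows had a median GC content of 59.3% and all promoters 52.7%. The part of GC content in these shares was not tested.

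The windows that hold the first of these motifs are shown for comparison with the values of their genes, the motif in capitals and the strand that of the gene.
Ndufa11 (chr17:56717692-56717721, plus strand): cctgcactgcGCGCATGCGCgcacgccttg
Ndufaf4 (chr4:24897960-24897989, plus strand): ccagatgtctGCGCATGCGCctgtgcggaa
Ndufaf5 (chr2:140170652-140170681, plus strand): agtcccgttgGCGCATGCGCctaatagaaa
The motif began 60 bases before the annotated start in Ndufa11, 113 before it in Ndufaf4 and 16 after it in Ndufaf5. The log2 differences of these genes were -0.06, 0.26 and -0.02. The sign is not settled for Ndufa11, at 0.39 on its other probe set, nor for Ndufaf5, which ran from -0.51 to 0.47 with single arrays left out. Both Ndufaf4 and Ndufaf5 are assembly factors, of 7 with a promoter window.

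In all 7 genes with the YY1 motif it lay after the annotated start, always on the gene's own strand. Position and strand were not counted for the other promoters with this motif. All 7 windows are shown.
Ndufa3 (chr7:3617384-3617413, plus strand): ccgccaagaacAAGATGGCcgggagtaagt
Ndufa9 (chr6:126849097-126849126, minus strand): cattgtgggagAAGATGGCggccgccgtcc
Ndufaf8 (chr11:120098933-120098962, plus strand): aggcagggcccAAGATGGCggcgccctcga
Ndufb8 (chr19:44555393-44555422, minus strand): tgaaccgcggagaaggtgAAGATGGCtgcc
Ndufc1 (chr3:51408915-51408944, minus strand): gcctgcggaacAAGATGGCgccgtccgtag
Ndufs4 (chr13:114388045-114388074, minus strand): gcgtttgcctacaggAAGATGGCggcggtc
Ndufs7 (chr10:80249462-80249491, plus strand): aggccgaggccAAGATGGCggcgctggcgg
The motif began between 10 and 38 bases after the start. The differences of the 7 genes ran from -0.19 to 0.25, with 2 higher (Ndufb8 and Ndufs4) and 5 lower and a median of -0.01. A match is a run of letters in this window and not a measured site.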

How the data were processed

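Total RNA from brown fat, 400 ng a sample, was biotin-labelled for whole-transcript arrays, according to the protocols in the labels. The authors deposited normalized log2 values for 41345 probe sets. The submitters' processing notes list RMA, oligo and limma, with no version or role. The genome build is not given in the sources used here. The base of the log is taken as 2 because RMA reports log2, and the origin of the scale is unknown. Processing of this kind can compress the differences of dim probe sets such as that of Ndufs5.

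The platform annotation gave 1 symbol for 23521 probe sets, several for 1814 and none listed for 16010. The brightest probe set per gene was kept (22180 genes), and all 42 members matched the RefSeq gene table by Entrez ID. The genotypes were set against each other with lmFit and eBayes of limma 3.58.1 under R 4.3.3, unblocked and unfiltered, and every gene entered the Benjamini-Hochberg adjustment. The fit had 2 residual and 3.96 prior degrees of freedom. The threshold was an adjusted p under 0.05. The scripts were tested on simulated data. Lists were described by counts and medians, with no set test.

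Members and lists were chosen with earlier results of these data known. Values in every array are given for the core subunits, up to 4 other subunits per direction with the largest difference and no overlap, the Ndufaf genes, Ndufa4, Ndufa4l2, members with an unadjusted p under 0.05, the 2 with the widest gap within a genotype and those with a second probe set. For each context list the 3 genes with the smallest p are named. Alternatives covered a replicate block, filters, probe set choice, normalization, the variance model and each array left out, and, chosen after seeing the data, the table without Ndufs5.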

Additional observations from a re-analysis of the deposited data

How the results depend on the processing

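Over 15 alternatives 0 of 27 Nduf genes named by rule passed an adjusted p of 0.05, and 10 of the 27 turned sign under at least 1, all with intervals that include 0. With replicate number as a block the count of all genes past the threshold was 1, as it was with a mean trend, against 0 in the main comparison, and it ran from 0 to 15 with single arrays left out (15 without wild-type replicate 1, 2 without wild-type replicate 2). The block rests on a shared number alone: deviations of same-numbered arrays had a correlation of -0.07 over all genes, and the block changed no call among the members. Among the alternatives that kept all 4 arrays, the number of Nduf genes with an unadjusted limma p under 0.05 was 0 with the filter on background and 0 without Ndufs5. Both settings remove Ndufs5, the 1 such gene of the main comparison, so these counts could not include it. Under the mean trend the 1 gene was Ndufa12, in place of Ndufs5. The settings with a single array left out all kept Ndufs5, and it did not pass in each of them. Leaving out single arrays gave a subunit median from 0.0124 to 0.0645, a factor median from 0.0311 to 0.109 and a difference between the medians from -0.0734 to 0.00465. Under the other alternatives these medians moved by less than the spread between replicates.

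Sign turns larger than the standard error came with the probe set choice for Ndufa11 (0.17 with the mean of its probe sets, 0.39 with the most variable) and Tfb2m (-0.28 and -1.28). Others came with single arrays left out: the values ran from -0.56 to 1.08 for Ndufb11, from -0.51 to 0.65 for Ndufaf2, from -0.51 to 0.47 for Ndufaf5, from -0.20 to 0.26 for Ndufs3 and from -0.77 to 0.58 for Ndufa4l2. An arm left with 1 array is assumed to vary like the other. Signal close to background limits Ndufs5. With 2 arrays a genotype, the Ndufs5 difference of -0.74 was not called in the main comparison. Nor were the largest differences of any gene, -3.39 and 3.65.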
